A study of Sus scrofa with 36 samples.

Results

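HSPA5, HSP90B1, CALR, PDIA3, PDIA4, DNAJB9, XBP1, ATF4 and DDIT3 are 9 genes of the endoplasmic reticulum (ER) stress response, and their liver expression was described here in 36 castrated male growing pigs. They were chosen by name, and their probes were found on a 1-colour Agilent pig array by gene name, RefSeq accession or probe description. This gave 44 probes of 60 bases, out of 60305 probes on the array. Of these, 43 were well above background on at least 6 of the 36 arrays and were kept, and all 43 were above background on all 36. The remaining HSP90B1 probe was above background on 1 array and was left out. The 9 genes stand among 11275 gene symbols that had a kept probe.

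The animals belonged to the lean commercial Large White breed (LW), to the Caribbean Creole breed (CR) or to their F1 cross, and 6 animals of each breed were killed at thermoneutrality (TN) and 6 after heat stress (HS). TN was 24 °C. The temperature label of the HS animals reads 30 °C while the growth protocol gives 32 °C for up to 5 days, and only the names TN and HS are used below. Blocks of littermates were divided between the temperatures. The TN animals were slaughtered first, and an effect of temperature cannot be told apart from one of the day of slaughter or of the few days between. The study also reports a lower feed intake under heat, and an effect of heat cannot be told apart from one of lower intake. The labels name no other treatment, and nothing in the labels ties one animal to its litter, pen or parents. The study describes the animals of each breed as a few such blocks, penned by breed. The fits below treat all animals as independent. A difference between breeds thus cannot be told apart from one between these few litters or pens.

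Proteins destined for secretion fold in the ER. When unfolded chains accumulate there, the membrane sensors IRE1, PERK and ATF6 start the unfolded protein response. IRE1 splices XBP1 mRNA, which then encodes a transcription factor for chaperone and secretory pathway genes. PERK slows translation but favours translation of ATF4, which induces DDIT3. The hepatocyte secretes most plasma proteins and carries an extensive ER at rest. The array measured mRNA abundance, and its signal does not tell spliced from unspliced XBP1 mRNA apart or report on translation.

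All values are log2 signal of the median spot intensity after quantile normalization between arrays, and all differences are log2 differences from limma fits over 44796 kept probes, with p-values adjusted by the Benjamini-Hochberg method over all of them. A probe was called differentially expressed at an adjusted p under 0.05. Where a gene had several probes, the representative probe was the one with the highest mean signal. Signals of different probes are not compared with each other, except in the sums of cell type markers and for the pair of PDIA4 probes. The 36 arrays had median signals of 70 to 92 intensity units over a background of 18 to 25, and no spot was saturated. Of 8 hepatocyte markers, 7 had a kept probe, and all 7 were above background on 36 arrays. On the first principal component 5 arrays lay away from the others of their breed (LW TN replicates 1 and 6, F1 TN replicate 3, F1 HS replicates 1 and 2), and results that changed without them are given both ways. The LW arrays among these 5 were at -4.83 and -3.04, and the other LW arrays at -24.8 or lower. The F1 arrays among them were at -18.1, -17.0 and -21.3, and the other F1 arrays at -1.31 or higher. By the animal numbers in the sample titles, LW TN replicates 1 and 6 and F1 HS replicates 1 and 2 are neighbours. Whether the breed labels of these arrays are right was not tested.

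None of the 9 genes was differentially expressed between HS and TN. The limma fit called 0 of the 43 probes, against 0.859% of all kept probes, and 4 of the 43 had an unadjusted p under 0.05 where 13.1% of all kept probes did. The signs were uneven, since 40 probes were lower and 3 higher in HS, with a median difference of -0.08 and a range of -0.24 to 0.14. The median over all kept probes was 0.00. Probes of one gene are not independent, so these signs carry no test.

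Among the chaperones, HSPA5 encodes BiP, the Hsp70 of the ER lumen and a widely used marker of the unfolded protein response. Its representative probe gave 13.50, 13.82 and 14.75 (lowest, median and highest of 6 animals) in LW TN and 13.22, 13.74 and 14.20 in LW HS. In CR the values were 13.06, 13.50 and 13.95 in TN and 12.65, 13.41 and 14.59 in HS. In F1 they were 13.21, 13.98 and 14.03 in TN and 12.85, 13.24 and 14.10 in HS. The HS range overlapped the TN range in every breed, and the highest single value belonged to a TN animal. The difference was -0.22 with a 95% confidence interval of -0.52 to 0.09 (limma adjusted p = 0.600), and 13 of 18 HS animals lay below the TN mean of their breed. HS was lower on 5 of 5 slides, by values between -0.43 and -0.06. Differences by slide, here and below, are between plain means, with no term for the other factor. The slide of 4 arrays held 2 LW TN, 1 CR HS and 1 F1 HS animal, so breed and temperature cannot be told apart there. It gave the -0.06.

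DNAJB9 encodes ERdj4, a J-domain cochaperone of BiP. Its representative probe ranged from 9.85 to 11.47 in the 18 TN animals with a median of 10.67, and from 9.82 to 11.03 in the 18 HS animals with a median of 10.25. The ranges overlapped almost entirely. The difference was -0.24 (95% interval -0.49 to 0.02, limma adjusted p = 0.432), and HS was again lower on 5 of 5 slides, by values between -0.33 and -0.09. The -0.33 came from the slide of 4 arrays.

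HSP90B1 encodes GRP94, the Hsp90 of the ER, and CALR encodes calreticulin, a lectin chaperone that binds calcium. The representative HSP90B1 probe had a median of 14.86 in TN and 14.78 in HS, and that of CALR 15.57 and 15.41. The intervals of the difference were -0.25 to 0.10 for HSP90B1 and -0.29 to 0.05 for CALR, and both included 0. PDIA3 and PDIA4 are protein disulfide isomerases, and PDIA3 works with calreticulin on glycoproteins. PDIA3 gave the smallest p of all 43 probes, with a difference of -0.18 (SE 0.07, limma adjusted p = 0.216). Its values ran from 12.35 to 13.04 in TN and from 12.04 to 12.86 in HS. PDIA4 differed by -0.03 (95% interval -0.20 to 0.14).

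For the transcription factors the differences were small as well. The representative probe of XBP1 differed by -0.05 (95% interval -0.23 to 0.12), that of ATF4 by -0.06 (-0.23 to 0.11), and that of DDIT3, which encodes the stress-induced factor CHOP, by 0.02 (-0.15 to 0.20). DDIT3 values lay between 8.84 and 9.77 in TN and between 8.87 and 9.97 in HS. The 2 remaining DDIT3 probes hold the same 60 bases and show how far identical probes can differ on these arrays:
A_72_P440751 and O11871: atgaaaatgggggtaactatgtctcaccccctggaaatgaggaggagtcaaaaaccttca
These gave HS minus TN differences of -0.10 (SE 0.11) and 0.09 (SE 0.07). Across the 36 animals the difference between the pair had an SD of 0.31, and their deviations from the group means correlated at 0.52. The signs of the 2 differences were opposite.

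**Figure D1:**
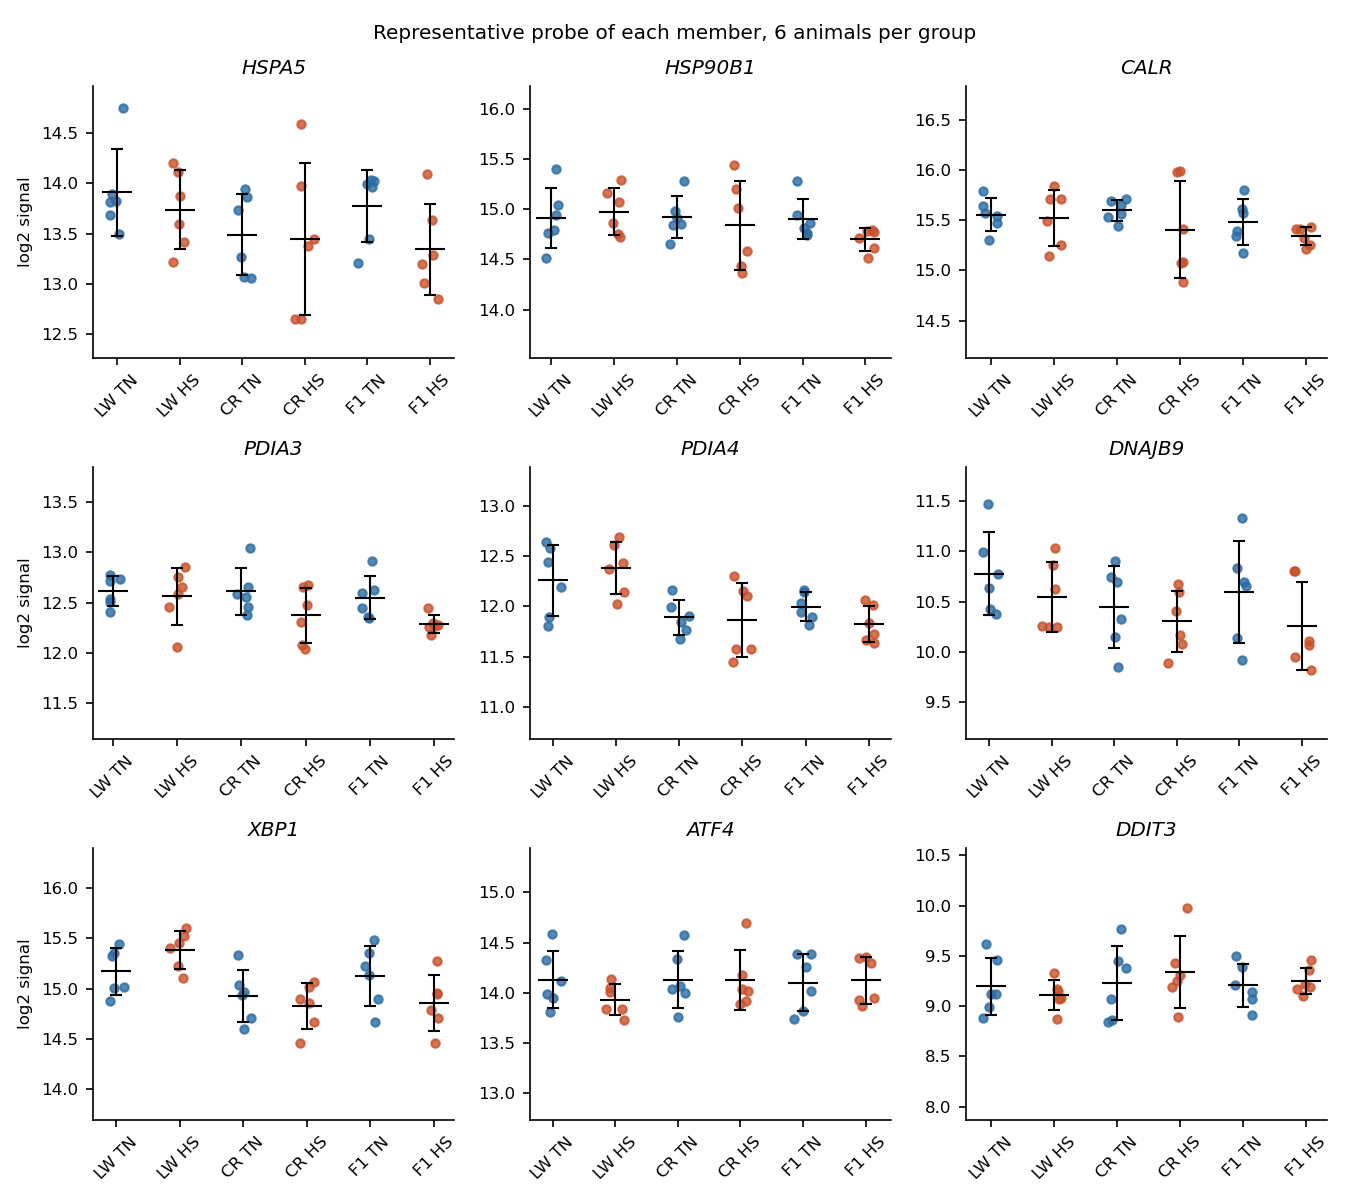
Log2 signal of the representative probe of each of the 9 genes in 6 groups, with 1 point per animal (6 per group) and a line at each group mean. The TN and HS ranges overlap for each gene within each breed. The 12 LW animals together have the highest mean of 7 of the 9 genes, all but ATF4 and DDIT3. Of these, XBP1 and PDIA4 were called in CR minus LW.

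Within breeds, limma called 0 of 43 probes in LW, CR or F1, and called 0%, 0% and 0.00893% of all kept probes. By representative probe, 6 of 9 genes were lower in HS in LW, 8 of 9 in CR and 7 of 9 in F1. The balance by probe was less alike. In LW 23 probes were higher and 20 lower in HS, in CR 7 were higher and 36 lower, and in F1 6 were higher and 37 lower. Of the higher probes in LW, XBP1 supplied 11 and HSP90B1 9. At an unadjusted p under 0.05 there were 1, 1 and 4 probes, where 5.12%, 7.4% and 9.31% of all kept probes passed. XBP1 differed most in sign, with HS minus TN differences of its representative probe of 0.21 in LW, -0.10 in CR and -0.27 in F1 (SE 0.14 each). The interaction of breed and temperature was called by limma for 0 of 43 probes and 0% of all kept probes. Its smallest unadjusted p among the members was 0.034, at an XBP1 probe, with an adjusted p of 0.995, and 1 of 43 probes had an unadjusted p under 0.05 where 3.74% of all kept probes did. A different response of the breeds was thus not shown for any of the 9 genes.

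The breeds differed more than the temperatures. In CR, 15 of the 43 probes were called lower than in LW and none higher, where 26.5% of all kept probes were called and 12.9% were called lower. By representative probe, 2 of 9 genes were called, both lower (XBP1 and PDIA4), against 25.9% of all gene symbols called and 14.2% called lower. XBP1 supplied 10 of the 15 probes, and PDIA4, DNAJB9, PDIA3, HSP90B1 and ATF4 supplied 1 each. No probe of HSPA5, CALR or DDIT3 was called. Set against the background, the share of genes called was near that of all gene symbols, and most called probes belonged to XBP1. In F1, 10 of 43 probes were called lower than in LW, 9 of XBP1 and 1 of PDIA4, where 18.4% of all kept probes were called and 9.23% called lower. Without the 5 arrays that lay apart, 18 probes were called in each of the 2 comparisons, and without slide 3 the F1 comparison called 5. The shares of all kept probes called under these settings are not given here.

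XBP1, the factor that IRE1 activates by splicing, had 11 kept probes. Its representative probe had a lowest, median and highest value of 14.88, 15.17 and 15.45 in LW TN and 15.10, 15.43 and 15.60 in LW HS. The CR values were 14.60, 14.95 and 15.34 in TN and 14.46, 14.88 and 15.07 in HS. The F1 values were 14.67, 15.18 and 15.48 in TN and 14.46, 14.87 and 15.28 in HS. CR and LW overlapped at TN, whereas every CR HS animal lay below every LW HS animal. CR was lower than LW by a log2 difference of -0.40 (SE 0.10, limma adjusted p = 0.00462), a change of -24.2%, and 11 of 12 CR animals lay below the LW mean. The difference held on 5 of 5 slides, between -0.41 and -0.28.

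The sequences of 3 XBP1 probes with large breed differences are printed here because the finding on XBP1 rests on what these oligos hybridise to. They start at bases 791, 842 and 1017 of the transcript record. The first 2 overlap, and capitals mark the 9 shared bases that end one and begin the next:
A_72_P592109: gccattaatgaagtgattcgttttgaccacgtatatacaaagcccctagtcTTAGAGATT
A_72_P544772: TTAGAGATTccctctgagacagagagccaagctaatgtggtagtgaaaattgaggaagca
A_72_P488529: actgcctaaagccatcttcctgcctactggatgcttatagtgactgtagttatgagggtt
Probe A_72_P592109 had a lowest, median and highest value of 10.64, 11.03 and 11.63 in LW TN and 11.16, 11.43 and 11.51 in LW HS. In CR the values were 10.26, 10.47 and 11.03 in TN and 10.05, 10.42 and 10.64 in HS, and in F1 they were 10.02, 10.69 and 11.45 in TN and 9.96, 10.16 and 11.11 in HS. All 12 CR animals and 11 of 12 F1 animals lay below the LW mean. The difference was -0.76 for CR minus LW (SE 0.15, limma adjusted p = 0.000276), a change of -41.0%, and -0.68 for F1 minus LW (SE 0.15, limma adjusted p = 0.00222), a change of -37.7%. CR was lower on 5 of 5 slides, between -0.85 and -0.53, and F1 on 5 of 5, between -0.97 and -0.22. The -0.85 and the -0.22 came from the slide of 4 arrays, where the LW animals were TN and the others HS.

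Over all XBP1 probes, 10 of 11 were called lower in CR, with differences of -0.76 to -0.40. The ranges of CR HS and LW HS did not overlap at 8 of the 11 XBP1 probes, against 8.69% of all kept probes and none of the 32 probes of the other members. F1 HS and LW HS did not overlap at 4 of the 11, against 2.52%. The 11 probes are not separate readings, since pairs of them share 57, 48, 41 or 36 bases. The deviations within these pairs correlated at 0.85 to 0.98. The probe counts thus describe XBP1 alone, and their comparison with the shares of all kept probes carries no test. At TN the ranges of LW and either of the others overlapped for all 43 probes, where 2.15% (CR) and 1.22% (F1) of all kept probes did not. A difference in the breed contrast between the temperatures was not shown, since the interaction was not called. The representative probe was not called in F1 minus LW (-0.29, SE 0.10, limma adjusted p = 0.0506). Without the 5 arrays that lay apart it was called in that comparison at -0.44 (limma adjusted p = 0.0026), and CR minus LW was -0.48. The exception among the 11 probes, A_72_P227182, is named XBP1 by its description alone. It differed by 0.16 (limma adjusted p = 0.108) in CR, and its deviations correlated negatively with those of the other 10 XBP1 probes, with r between -0.56 and -0.28.

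The XBP1 difference was larger at probes that lie further upstream in the transcript record. For the 6 probes whose start in the record is given, CR minus LW was -0.76 at base 791, -0.69 at 842, -0.63 at 1017, -0.58 at 1041, -0.40 at 1584 and -0.42 at 1692. The 6 ATF4 probes with a position ran from -0.34 at base 232 to 0.14 at base 1230. HSP90B1 had no such order, with -0.09 at base 830 and -0.06 at base 2543. This comparison was chosen after the values were seen. The most upstream probe changed by more than the most downstream by -0.34 in XBP1, -0.48 in ATF4 and -0.02 in HSP90B1. Over 1000 transcripts with probes at least 300 bases apart, the same quantity had a median of -0.05 in CR minus LW, with 58.4% of transcripts lower upstream. It had a median of -0.04 in F1 minus LW (57.4%) and 0.02 in HS minus TN (40.2%). Of the 1000 transcripts, 10.2% had a value at or below that of XBP1 in CR minus LW and 4.5% in F1 minus LW, while for ATF4 the shares were 3.2% and 2.2%. The part of probe position in the XBP1 and ATF4 differences was not tested.

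**Figure D2:**
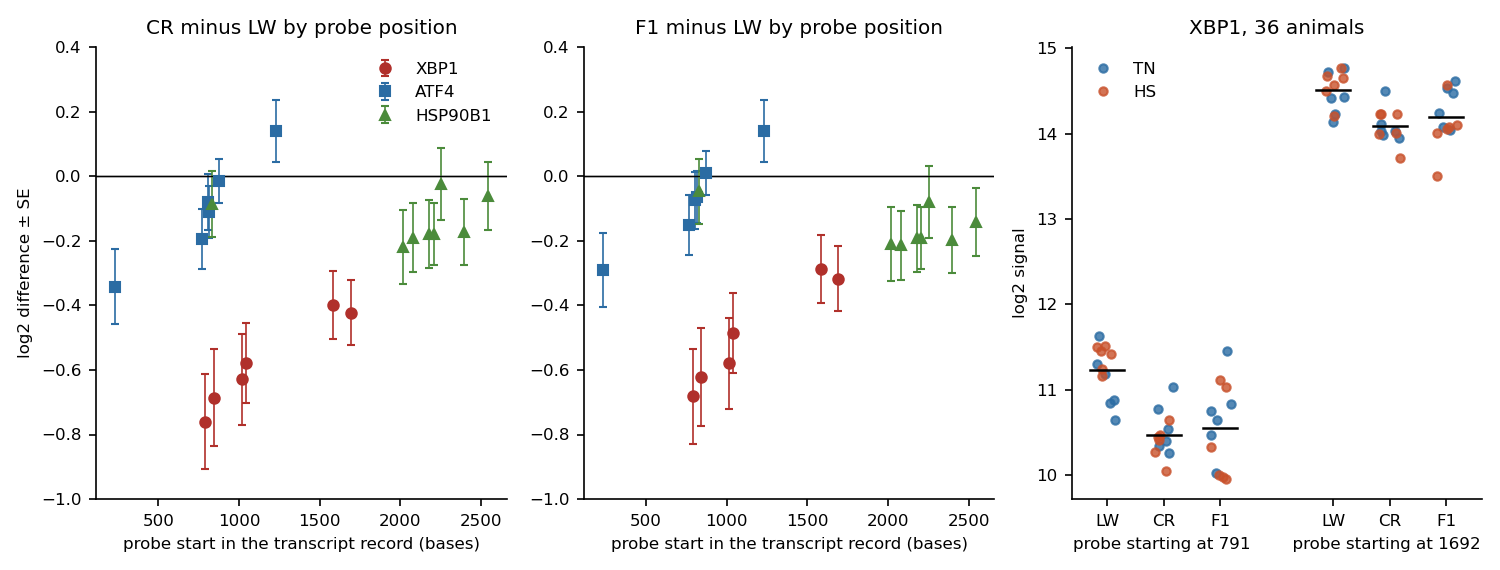
Log2 difference ± SE of each probe of XBP1, ATF4 and HSP90B1 against the start of the probe in its transcript record in bases, for CR minus LW and F1 minus LW, and the log2 signal of the XBP1 probes starting at 791 and 1692 in 36 animals with breed means as lines. The XBP1 differences shrink from -0.76 at base 791 to -0.42 at base 1692 in CR minus LW, and in the last panel breeds are to be compared within a probe.

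PDIA4 was the other gene whose representative probe was called. It read 11.81, 12.32 and 12.64 (lowest, median, highest) in LW TN and 12.03, 12.40 and 12.69 in LW HS. CR read 11.67, 11.88 and 12.16 in TN and 11.45, 11.84 and 12.30 in HS, and F1 read 11.82, 11.99 and 12.16 in TN and 11.63, 11.78 and 12.06 in HS. The ranges overlapped, but all 12 CR animals and all 12 F1 animals lay below the LW mean. CR minus LW was -0.44 (SE 0.10, limma adjusted p = 0.00168) and F1 minus LW was -0.41 (SE 0.10, limma adjusted p = 0.00648), and both were lower on 5 of 5 slides. Without slide 4 the F1 difference was -0.29 and no longer called (limma adjusted p = 0.104). The other PDIA4 probe, whose signal was lower by a mean log2 difference of 5.82, did not share the breed difference. It gave 0.07 in CR (limma adjusted p = 0.581) and 0.22 in F1 (limma adjusted p = 0.0612), and the deviations of the pair did not correlate (r = -0.00). Which of the pair reports PDIA4 mRNA was not tested.

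For DNAJB9, HSP90B1, PDIA3 and ATF4 the call depended on the probe, while no probe of HSPA5, CALR or DDIT3 was called. The 2 DNAJB9 probes overlap, with capitals on the 8 shared bases that end one and begin the other:
A_72_P025866: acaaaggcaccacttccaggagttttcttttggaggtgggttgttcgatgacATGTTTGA
O11614: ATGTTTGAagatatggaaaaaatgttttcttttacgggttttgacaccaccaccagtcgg
The first, the representative probe, gave -0.29 in CR minus LW (limma adjusted p = 0.172) and the second -0.51 (limma adjusted p = 0.0160), although their deviations correlated at 0.94. At the second, all 12 CR animals lay below the LW mean, while at the first 8 did. The 3 HSPA5 differences in CR minus LW were -0.43 to -0.35, and that of the representative probe had a 95% interval of -0.73 to 0.02 (limma adjusted p = 0.160). The 3 probes deviated together with r of 0.97 to 0.98, so the spread here lay between animals and not between probes. Without CR HS replicate 6 the representative HSPA5 probe was called, at -0.47 (limma adjusted p = 0.0358).

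HSP90B1 had 10 kept probes with differences of -0.39 to -0.02 in CR minus LW, all lower, of which 1 was called. This probe is printed with O7995, an HSP90B1 probe on the opposite strand, and capitals mark the 39 bases at which the 2 are reverse complements:
CUST_304_PI427286967: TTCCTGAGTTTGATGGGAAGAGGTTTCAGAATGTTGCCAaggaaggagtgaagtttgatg
O7995: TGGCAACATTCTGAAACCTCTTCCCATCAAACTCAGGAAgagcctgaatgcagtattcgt
The first was lower in CR by -0.39 (SE 0.12, limma adjusted p = 0.0150). The second differed by -0.10 (limma adjusted p = 0.390), and the deviations of the pair correlated at 0.76. Whether O7995 reports HSP90B1 mRNA was not tested, and it is counted among the 10 probes here and the 43 of all members. The remaining HSP90B1 probes lay between -0.22 and -0.02. PDIA3 was called at 1 of 2 probes (-0.24, limma adjusted p = 0.0296), and its representative probe differed by -0.09. ATF4 was called at 1 of 7 probes (-0.34, limma adjusted p = 0.0257), the one that starts at base 232, and its representative probe differed by 0.10. CALR differed by -0.04 (95% interval -0.24 to 0.17) and DDIT3 by 0.13 (-0.08 to 0.34) at their representative probes.

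**Figure D3:**
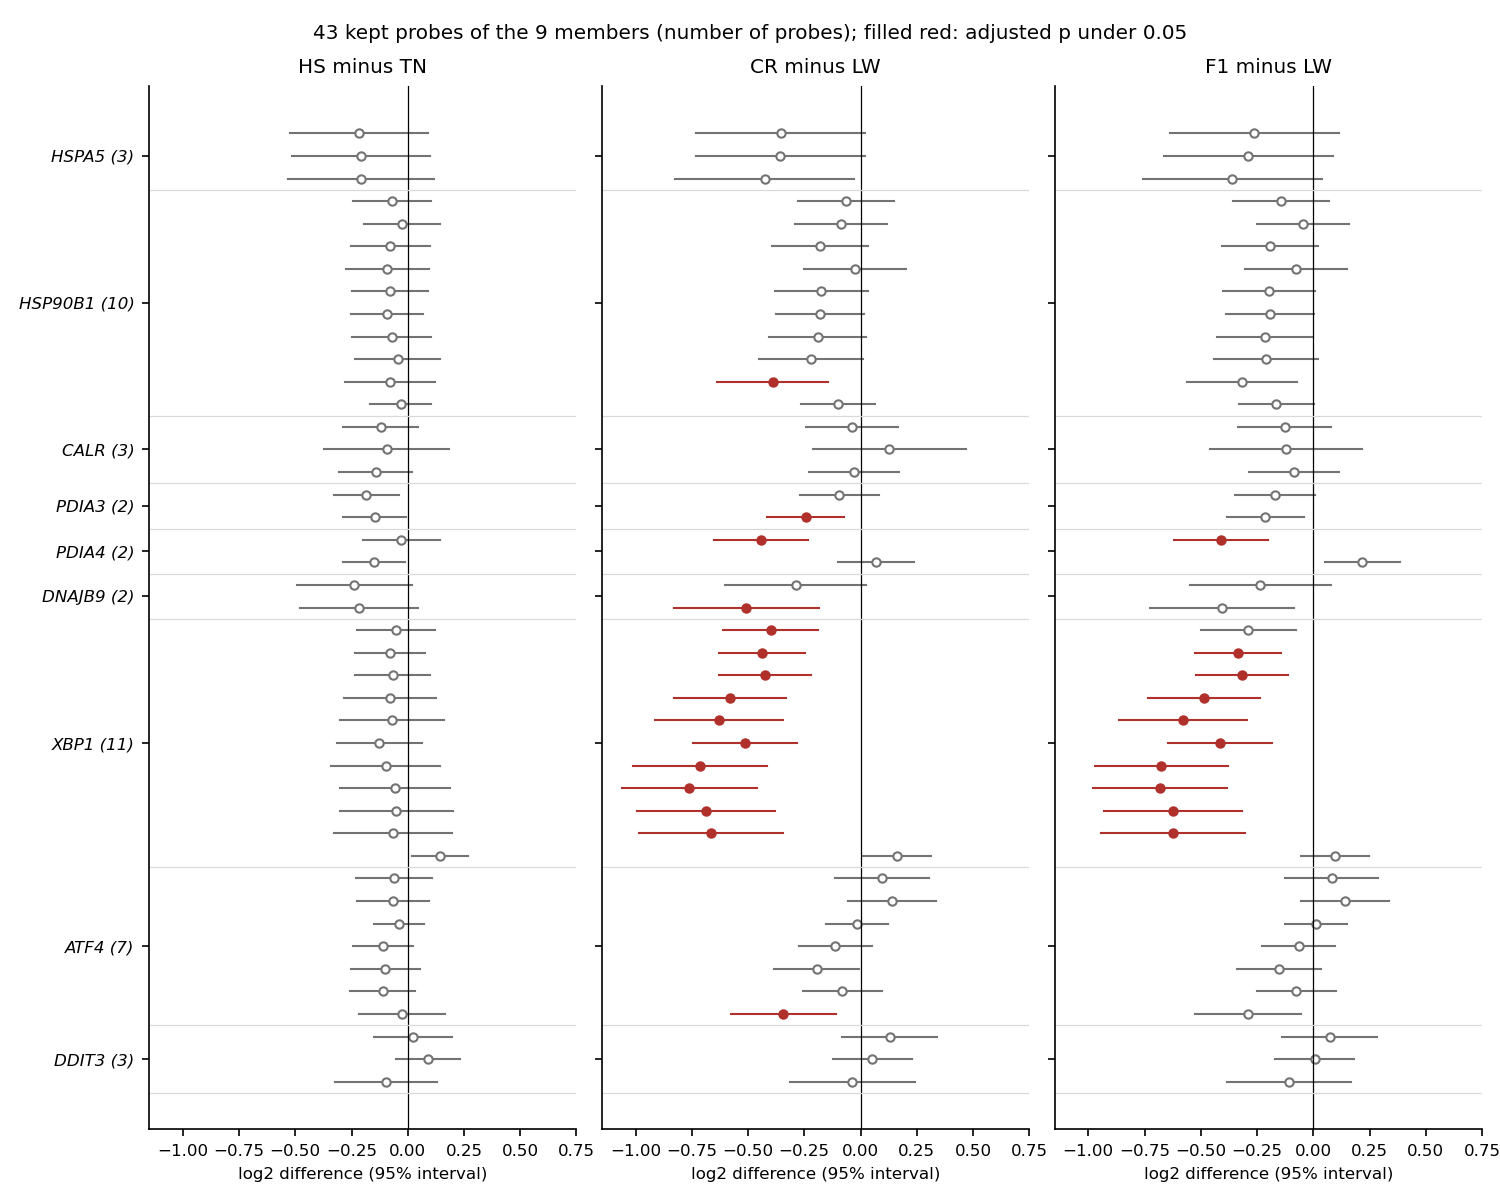
Log2 difference with 95% confidence interval of all 43 kept probes, grouped by gene, for HS minus TN, CR minus LW and F1 minus LW, with probes called at an adjusted p under 0.05 filled in red. No probe is called for temperature, 15 are called in CR minus LW and 10 in F1 minus LW, all of them lower and most of them XBP1.

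F1 did not differ from CR at any of the 43 probes in the limma fit, where 1.5% of all kept probes were called. Of the members, 27 probes were higher and 16 lower in F1, and 0 had an unadjusted p under 0.05 (12.5% of all kept probes). The difference of F1 from the mean of LW and CR was called for 0 of 43 probes, against 1.12% of all kept probes, and 7 had an unadjusted p under 0.05 (15.2% of all kept probes). Without the 5 arrays that lay apart, 9 of 43 were called, and the share of all kept probes called without them is not given here. The comparison with the parental mean thus depended on whether these 3 F1 and 2 LW animals, whose breed labels were not tested, were kept. CR minus LW and F1 minus LW share the LW animals and are not independent.

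Other cell types and hepatocytes contribute to liver RNA, and some of their markers differed between breeds in the same direction as XBP1. In CR, 3 of 5 kept macrophage markers were called lower than in LW (CD163, VSIG4 and CSF1R, -1.16 to -0.57), 3 of 5 lymphocyte markers (NKG7, CD2 and CD3E, -0.65 to -0.46), 3 of 4 endothelial markers (LYVE1, CLEC4G and PECAM1, -0.61 to -0.41) and 1 of 5 stellate markers (RGS5, -0.79). Of 7 hepatocyte markers 2 were called lower (FGB -0.20, APOA1 -0.12), and KRT7 of 4 cholangiocyte markers was higher (0.74). The summed level of a list is the log2 of its linear signals added up, so the marker with the highest signal weighs most. For macrophages this was CD5L (mean 16.37), which was not called in CR minus LW (0.12, limma adjusted p = 0.260). For endothelium it was CLEC4G (mean 14.42). The sums are thus no measure of the number of cells. The summed endothelial level ranged from 14.51 to 15.07 in LW, from 14.07 to 14.70 in CR and from 14.15 to 15.03 in F1. The summed macrophage level ranged from 16.20 to 16.70 in LW and from 16.24 to 16.74 in CR, the lymphocyte level from 9.10 to 9.85 and from 8.74 to 9.34, the stellate level from 13.23 to 14.20 and from 12.92 to 13.95, and the hepatocyte level from 20.79 to 20.93 and from 20.73 to 20.86. Plasma cells, which depend on XBP1, had 1 measured marker of 5, and it was not called. In F1 minus LW, 3 macrophage, 2 lymphocyte, 3 endothelial and 1 stellate marker were called. No list had a called marker in HS minus TN. The part of these cells in the breed differences of XBP1 and PDIA4 was not tested, and in whole liver fewer cells of a type cannot be told apart from less RNA per cell.

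Within the groups, 7 of the 8 other members followed HSPA5 from animal to animal, to different degrees. Deviations of each animal from its group mean were compared between HSPA5 and the other 8 genes by representative probe (n = 36, 8 pairs, permutation within groups with 100000 resamples, two-sided, Benjamini-Hochberg adjustment over the 8). DNAJB9 followed HSPA5 most closely, with Pearson's r = 0.84 and Spearman's rho = 0.90 (permutation p = 1e-05, the smallest possible, for both). HSP90B1 had r = 0.71 and rho = 0.64 (permutation p = 9e-05, adjusted 0.00036), and CALR r = 0.66 and rho = 0.58 (permutation p = 0.00055, adjusted 0.00147). For PDIA4 r was 0.55, for ATF4 0.52, for XBP1 0.45 and for PDIA3 0.42, with adjusted permutation p-values of 0.00542, 0.00542, 0.0114 and 0.0308 and rho of 0.50, 0.51, 0.45 and 0.42. DDIT3 did not pass (r = 0.08, rho = 0.04, permutation p = 0.712). Among 11266 gene symbols outside the members, the median r with HSPA5 was 0.01 and the 20 highest were 0.77 or more. What share of them reached the r of the members was not counted, so the 7 are not shown to be unusual.

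Some relations were weaker without extreme animals. Without the 2 animals farthest from the HSPA5 median of 13.66 (LW TN replicate 3 at 14.75 and CR HS replicate 5 at 12.65), r was 0.81 for DNAJB9, 0.61 for HSP90B1, 0.59 for CALR, 0.46 for ATF4, 0.44 for PDIA4 and 0.38 for XBP1. PDIA3 no longer passed (r = 0.35, adjusted permutation p = 0.0958). The largest deviations from a group mean belonged to CR HS replicate 6 (1.14 for HSPA5, 0.60 for HSP90B1 and 0.59 for CALR) and LW TN replicate 3 (0.84 for HSPA5). Without this pair r was 0.85 for DNAJB9, 0.56 for HSP90B1, 0.54 for CALR, 0.51 for ATF4, 0.50 for XBP1 and 0.40 for PDIA4, and PDIA3 did not pass (0.32, adjusted permutation p = 0.114). DNAJB9 thus kept its value, while HSP90B1 and CALR fell from 0.71 and 0.66. With slide also removed from the deviations, r was 0.82 for DNAJB9, 0.69 for HSP90B1, 0.64 for CALR, 0.64 for ATF4, 0.55 for XBP1, 0.47 for PDIA4 and 0.40 for PDIA3. All 7 passed by r, but by rho PDIA3 and PDIA4 did not (0.34 each, adjusted permutation p = 0.0687). Without the 5 arrays that lay apart, DNAJB9 (0.86), HSP90B1 (0.74), CALR (0.71), ATF4 (0.65) and PDIA4 (0.57) passed, while PDIA3 (0.42, adjusted permutation p = 0.0580) and XBP1 (0.38, adjusted permutation p = 0.0599) did not. Within the 4 slides of 8 arrays, r with HSPA5 was 0.70 to 0.97 for DNAJB9, 0.57 to 0.90 for ATF4 and 0.29 to 0.77 for XBP1. It was 0.14 to 0.88 for CALR, 0.14 to 0.65 for PDIA3, 0.12 to 0.64 for PDIA4, -0.03 to 0.83 for HSP90B1 and -0.27 to 0.56 for DDIT3. The slide that held 4 arrays was too small for a value. Animals of a litter or pen share sources of variation that these deviations keep.

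**Figure D4:**
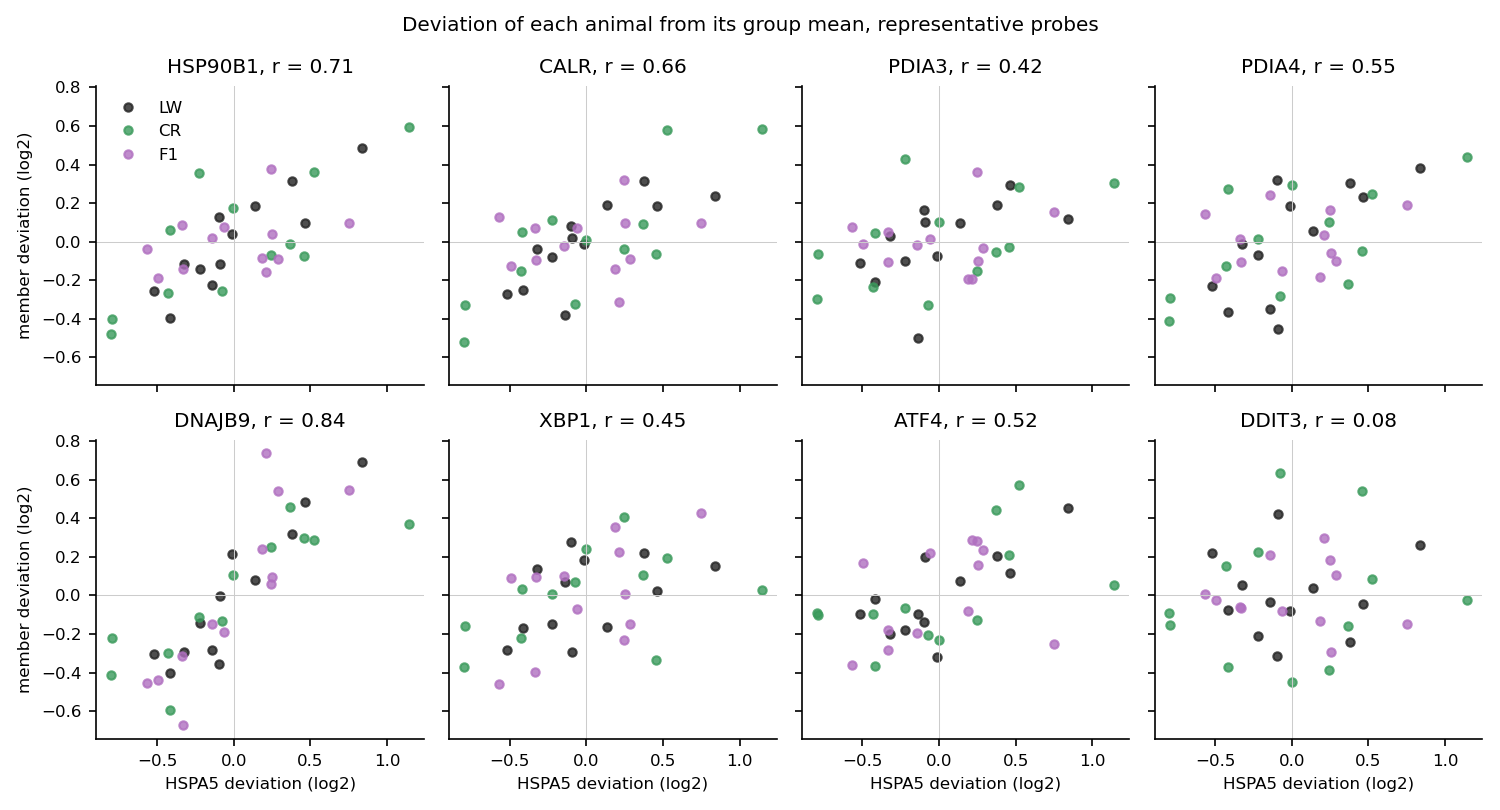
Deviation of each of 36 animals from its group mean for HSPA5 (x axis, log2) and for each of the other 8 genes (y axis, log2), 1 point per animal, coloured by breed. DNAJB9 lies closest to a line with HSPA5 (r = 0.84), and DDIT3 shows no relation (r = 0.08).

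CALR and the disulfide isomerases were also close to HSP90B1. As a description over the same 36 animals, HSP90B1 correlated with CALR at 0.91, with PDIA4 at 0.80 and with PDIA3 at 0.78, and CALR with PDIA3 at 0.81. HSP90B1 was less like the transcription factors, with 0.34 for ATF4, 0.29 for XBP1 and -0.07 for DDIT3. Low or negative values were also found between XBP1 and ATF4 (0.01), PDIA4 and ATF4 (0.01), PDIA3 and XBP1 (0.10), CALR and DDIT3 (-0.12), PDIA4 and DDIT3 (-0.25) and XBP1 and DDIT3 (-0.35). Among 11266 other gene symbols, the 6 whose deviations were most like those of HSPA5 were HYOU1 (r = 0.92), MANF (0.91), CDK2AP2 (0.90), LRRC59 (0.90), SELENOS (0.85) and AIMP2 (0.84), where the median over all symbols was 0.01. HYOU1 encodes a large ER chaperone that exchanges nucleotide on BiP, MANF a secreted ER stress protein and SELENOS a selenoprotein of the ER membrane. These are given as a description, with no test.

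The wider unfolded protein response was read from a list of 116 other genes sorted by role, of which 104 had a kept probe. In HS minus TN, 3 of 104 were called (2.88%), against 0.958% of all gene symbols. ERLIN1 (0.25, limma adjusted p = 0.019) and ERLIN2 (0.31, limma adjusted p = 0.039), whose proteins form an ER membrane complex that targets receptors for degradation, were higher in HS. ERN2, a homologue of the sensor IRE1, was lower (-0.42, limma adjusted p = 0.049). None of the other 101 was called, including all 16 chaperones and all 22 genes of the PERK and ATF4 branch. The median difference was -0.04, against -0.00 over all symbols. The number called in HS minus TN was 1 without the 5 arrays that lay apart, 1 without any of 17 single arrays and 0 without any 1 of the 5 slides.

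In CR minus LW, 24 of 104 were called lower and 5 higher (27.9% in all), against 25.9% of all gene symbols, with a median of -0.09 against -0.01. The directions were uneven, with 23.1% of the list called lower, against 14.2% of all gene symbols, and 4.81% called higher. The members of the list were not tested as a set. The chaperones had 4 of 16 lower, the enzymes of disulfide formation 5 of 12 lower and 1 higher, the translocon and signal peptidase group 6 of 18 lower, and the degradation group (ERAD) 3 of 21 lower and 3 higher. The glycoprotein cycle had 2 of 8 lower, the PERK and ATF4 branch 3 of 22 lower, and the sensors 1 of 7 lower and 1 higher. Among the called genes, the largest falls were SELENOS (-0.51), VLDLR and CEBPB (-0.45 each), SPCS1 of the signal peptidase (-0.44), PDIA5 (-0.42) and ERP44 (-0.40). ERP44 is a thiol protein that retains clients in the early secretory pathway. SPCS1 was called lower at 13 of its 13 probes. The 5 higher genes were ATF6 (0.64), VCP (0.28), TMX3 (0.22), DERL1 (0.21) and RNF5 (0.16). ATF6 encodes the sensor that is cut to release a transcription factor, and its call came from 1 of its 3 probes. The count of 29 was 18 without slide 3 and 16 without slide 4, and the shares of all gene symbols without them are not given here.

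In F1 minus LW, 15 were called lower and 1 higher (15.4%), against 17.3% of all gene symbols. The share called lower was 14.4%, against 10% of all gene symbols. ATF6 was the 1 called higher (0.42). Among the called genes, SPCS3 (-0.51), PRDX4 (-0.43), ASNS (-0.36), ERLIN2 (-0.35), SPCS1 (-0.33) and SIL1 (-0.33) were the largest falls. The count of 16 was 32 without the 5 arrays that lay apart, 6 without slide 3 and 9 without slide 4. The shares of all gene symbols under these settings are not given here. None of the list was called in F1 minus CR, where 1.78% of all gene symbols were.

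**Figure D5:**
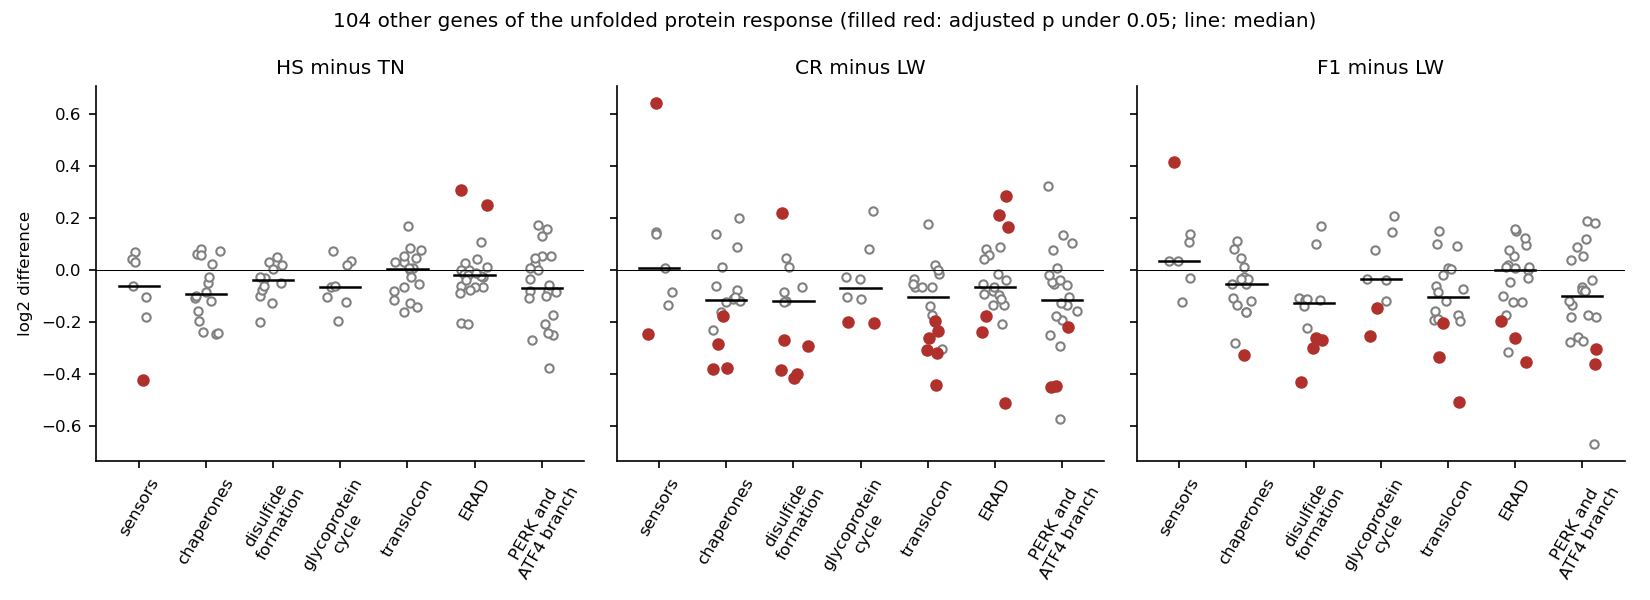
Log2 difference of the representative probe of 104 other genes of the unfolded protein response, by role, for HS minus TN, CR minus LW and F1 minus LW, with called genes in filled red and the median of each role as a line. In HS minus TN 3 genes are called, and in CR minus LW 24 are called lower and 5 higher, spread over the roles.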

How the data were processed

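Liver RNA of 36 pigs was hybridised to 1-colour Agilent arrays of 61625 spots. The authors deposited 1 scanner table per array from Agilent Feature Extraction 10.10.1.1, with spot intensity on a linear scale and not normalized between arrays, and the background flags used here. A deposited series table of log2 values, which the study's methods describe as quantile normalized, served as an alternative. The mean of each probe in it was near a common value, and how it was centred is not given in the sources used here. The median intensity was log2 transformed and quantile normalized over 60306 non-control spots. Spots flagged as non-uniform (107) were set missing. A probe was kept if 6 or more of the 36 arrays had it well above background. Genes were named from the files and the RefSeq table of Sscrofa11.1: 13936 spots by symbol, 183 by synonym, 9858 by accession, 1602 by gene number and 1301 by the file's name only, while 33426 had none. Probe sequences are those of the scanner tables. No genome was used here.

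Differences were fitted with limma 3.58.1 in R 4.3.3 (lmFit, eBayes, two-sided), on all 36 arrays, with terms for breed and temperature. The interaction and the effects within breeds came from a model of 6 group means. The study also fitted the pen, the slaughter day and both parents as random effects, which the labels do not give and which were not used. The limma p-values thus treat littermates and pen mates as independent animals. Arrays lay on 5 slides that each held TN and HS equally and all breeds. The slide of 4 arrays held LW only at TN, and CR and F1 only at HS. The fit was tested on simulated data. Groups come from the labels, replicate numbers only name animals, and the number of arrays limits the precision.

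All 9 members were described through the representative probe, with the other probes by count and range. From the wider list the called genes were named, at most 6 each way per comparison, with the 6 genes most like HSPA5. Members, lists and rules were chosen with earlier results of these data known. Alternatives were other signal columns, background correction, normalization order and filters, slide as a block, array weights, a trended robust spread, gene means, no breed term, the authors' table, and leaving out each array, each slide or the 5 arrays that lay apart.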

Additional observations from a re-analysis of the deposited data

Results flagged for a closer look

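In 54 combinations of a gene and a group of 6 animals, the representative probe was checked for an animal that stood apart from the other 5, measured as its gap to the nearest animal over the range of the group, against Dixon's 95% critical value. Chance alone sets apart about 1 in 20 groups. There were 3 such animals. For HSPA5, LW TN replicate 3 had a log2 signal of 14.75, with the next animal at 13.90 (ratio 0.680). For HSP90B1, F1 TN replicate 1 had 15.28, with the next at 14.94 (ratio 0.637). For ATF4, CR HS replicate 2 had 14.70, with the next at 14.18 (ratio 0.646). No member had HS minus TN differences that were opposite in every animal of a pair of breeds.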

How the results depend on the processing

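No paired analysis was possible because the labels give no replicate, litter or pen numbers, and the replicate numbers used here only name animals. Of 57 alternatives not all apply to each result. The shares of all kept probes or gene symbols called under them are not given, so the counts below have no background beside them. With each of 36 arrays left out, and under 17 other settings for HS minus TN and 16 for the others, none called a member in HS minus TN, within a breed, in F1 minus CR or in the interaction, and XBP1 and PDIA4 were lower in CR under each setting that gave a value. CR minus LW called 13 to 19 of the 43 probes with 1 array left out (15 in full) and 11 to 18 under the others. F1 minus LW called 9 to 15 with 1 array left out (10 in full), 16 with array weights, 5 without slide 3 and 18 without the 5 arrays that lay apart. By representative probe, CR minus LW called 2 to 3 genes with 1 array left out. F1 minus LW called 1 in full, 1 to 2 with 1 array left out, 0 without slide 4, and 2 with the processed signal, normexp, the filter on all 36 arrays, slide as a fixed or random block, array weights, the trended robust spread, without slide 1 and without the 5 arrays. The second gene was XBP1, which 10 single arrays left out also made a call. The mean of the probes of each gene ended the PDIA4 call in F1 minus LW (-0.10, limma adjusted p = 0.355). F1 minus the mid-parent called 0 with 1 array left out, 2 with array weights and 9 without the 5 arrays. The wider list in HS minus TN called 3 in full, 1 to 4 with 1 array left out, 1 with the processed signal, with no breed term and without the 5 arrays, and 0 without each slide. The arrays that left 1 were LW TN 2 and 4, LW HS 4 and 6, CR TN 2, 3, 5 and 6, CR HS 1, 3 and 4, F1 TN 1, 3 and 4, and F1 HS 1, 2 and 6. In CR minus LW the list called 25 to 32 with 1 array left out, 18 without slide 3 and 16 without slide 4. In F1 minus LW it called 13 to 22 with 1 array left out, 25 with array weights, 6 without slide 3, 9 without slide 4 and 32 without the 5 arrays.

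Signs turned only where no call was made. The authors' table gave ATF4 -0.0176 in F1 minus LW. With the mean of the probes of each gene, CR minus LW was 0.0202 for CALR and -0.0729 for ATF4, and F1 minus LW was -0.0499 for ATF4 and -0.00982 for DDIT3. DDIT3 in HS minus TN ran from -0.0196 (without CR HS replicate 1) to 0.0538 with 1 array left out, with further negative values of -0.0032 and -0.0043 without CR TN replicates 2 and 5, and was -0.0285 without slide 1. CALR in CR minus LW ran from -0.0893 to 0.0141 (without CR HS replicate 5) with 1 array left out, and was 0.0392 without slide 4. HS minus TN was 0.0130 for HSP90B1 and 0.0401 for PDIA4 without slide 2, and 0.0274 for XBP1 without slide 4. DDIT3 in F1 minus LW was -0.0140 without slide 4, and its r with HSPA5 was -0.0125 without the 2 farthest animals. HSPA5 correlations passed for 7 of 8 genes in full, 6 without these 2 animals, 6 without the pair of largest deviations and 5 without the 5 arrays. Leaving out slides or arrays also tests fewer samples, and otherwise the cause was not tested. The 5 arrays were left out with their place on the principal component known, and for the correlations this and leaving out the largest deviations were added after seeing the data.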
